A study of Homo sapiens with 6 samples.

Results

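Mitotic kinases, cyclins and spindle genes were followed in the established human breast cancer line Hs578T, in a form whose homeobox factor HOXA5 could be switched on. The group holds 35 genes chosen by name, and every probe set that the platform table gives to 1 of them was taken, 61 of 22283 probe sets on the array. Each of the 35 genes had at least 1 tested probe set, and 60 of the 61 passed the filter on low values. A further probe set, listed for CENPA together with a second gene, was left out.

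The study holds 6 Affymetrix arrays of total RNA in 3 groups of 2 arrays. Cells of the 0 h group carried the inducible HOXA5 gene but were not induced, and the other groups were the same cells after 6 h and 9 h of induction. Each time was taken once in each of 2 experiments, which the labels describe as separate batches of RNA. For 6 h in experiment 2 the title names that experiment and the lot line names experiment 1, and the title was followed. The inducing agent, its dose and whether the line is 1 clone are not given in the sources used here. All 3 groups carry the construct, and 0 arrays of uninduced cells at 6 h or 9 h are among the samples used here, so time in culture and induction cannot be told apart. The labels do not say whether the batches came from separate cultures, so the p-values measure the spread between these arrays, which may be technical.

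Cells enter mitosis when CDK1, bound to cyclin A or cyclin B, is switched on by CDC25 phosphatases. The Polo, Aurora and NEK kinases then build the spindle, kinesins and their partners move and bundle its microtubules, and the spindle checkpoint holds the anaphase-promoting complex back until all chromosomes are attached. Most of these genes are transcribed late in the cell cycle under MYBL2, FOXM1 and the MuvB complex, which reads a short promoter element called CHR, often near CCAAT boxes bound by NF-Y. Levels of these genes are widely used as a readout of how many cells in a culture are dividing.

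The promoters show what the members share outside the array values. The RefSeq table of GRCh38.p14 holds promoters for 28 of the 35 genes, 37 sequences in all, each from 250 bases before to 50 bases after a transcription start. CHR elements, searched on both strands as TTTGAA or TTCGAA, were in 59.5% of these sequences against 16.4% of all 35093 promoters in the table. CCAAT, on either strand, was in 81.1% against 34.6%. Both were in 56.8% against 6.37%, and 19 of the 28 genes had a promoter with both. E2F letters, searched on both strands as TTCGCGC and the variants TTGGCGC, then TTCCCGC and also TTGCCGC, were in 27.0% against 13.0%. These shares describe letters in a window and are not binding sites.

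The 160 bases before the start are given for 4 members that lay lower at 9 h than at 6 h in both experiments, and for KIF11, a kinesin that did not. CHR and CCAAT letters are in capitals, ATTGG and TTCAAA being CCAAT and TTTGAA on the other strand.
PLK1 at chr16:23678729-23678888, plus strand: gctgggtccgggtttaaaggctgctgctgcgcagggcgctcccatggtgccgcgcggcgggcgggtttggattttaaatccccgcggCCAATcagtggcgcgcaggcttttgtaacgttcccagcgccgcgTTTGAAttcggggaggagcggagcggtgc
CDC20 at chr1:43358821-43358980, plus strand: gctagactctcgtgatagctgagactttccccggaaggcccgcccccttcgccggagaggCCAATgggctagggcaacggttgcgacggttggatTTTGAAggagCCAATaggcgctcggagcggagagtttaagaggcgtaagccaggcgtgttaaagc
MKI67 at chr10:128126424-128126583, minus strand: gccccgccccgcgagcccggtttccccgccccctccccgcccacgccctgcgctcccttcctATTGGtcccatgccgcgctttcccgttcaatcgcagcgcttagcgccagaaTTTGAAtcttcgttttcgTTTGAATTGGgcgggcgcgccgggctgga
AURKB at chr17:8210226-8210385, minus strand: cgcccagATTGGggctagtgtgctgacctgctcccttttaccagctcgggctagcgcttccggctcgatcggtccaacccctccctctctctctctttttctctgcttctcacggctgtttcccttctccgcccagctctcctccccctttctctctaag
KIF11 at chr10:92592970-92593129, plus strand: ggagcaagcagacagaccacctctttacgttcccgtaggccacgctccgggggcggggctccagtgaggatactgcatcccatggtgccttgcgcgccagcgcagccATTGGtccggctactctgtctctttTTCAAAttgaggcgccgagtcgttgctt
In PLK1 the CHR letters begin 29 bases before the start and the CCAAT box 73 bases before it, and in KIF11 they begin at 28 and 53. CDC20 has 1 CHR between CCAAT boxes that begin 100 and 55 bases before the start. MKI67 has 2 CHR elements, the nearer of which overlaps a reversed CCAAT box. For AURKB, whose first listed start of 2 is shown, the window holds 1 reversed CCAAT box and 0 CHR matches. UBE2C, FOXM1, BIRC5, AURKA, TPX2, TTK and BUB3 were not in the table used here.

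Levels below are log2 intensities after quantile normalisation, which gives every array the same distribution of values, so each change is relative to the whole array. The deposited medians ran from 18.7 intensity units (6 h, experiment 1) to 95.7 (0 h, experiment 1). The gene is represented by its brightest tested probe set. Changes carry the standard error of the limma fit without the experiment as a term, with 2 arrays per group. The mesenchymal markers of such a line were well expressed, with 10 of 12 above the floor of 3.67 in all arrays, among them VIM, CD44 and CAV1. The luminal epithelial markers EPCAM, KRT19 and PGR stayed at the floor in all arrays, while 7 of the 11 luminal markers, KRT18 and ESR1 among them, were above it in all arrays. The leukocyte markers CD3E, CD3D and CD79A, the erythroid HBB and the endothelial PECAM1 were above it in all arrays too. Passing the floor therefore does not by itself show expression. Summed intensities of the leukocyte markers lay between 150 and 219 in all groups, against 18096 to 20088 for the mesenchymal ones. Those of the luminal markers lay between 1708 and 4214, both of these at 0 h.

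No member passed in any comparison by limma with Benjamini-Hochberg adjustment over all 18360 tested probe sets, and the lowest adjusted p of a member was 0.969 at 6 h against 0 h, 0.586 at 9 h against 0 h and 0.932 at 9 h against 6 h. The background was 0 of all probe sets as well, or 0% in each comparison. When the experiment was added to the model 0 members passed again, against 0.359% of all probe sets at 9 h against 0 h (0.0327% lower and 0.327% higher) and 0% in the other comparisons. At an unadjusted limma p under 0.05, 1 of the 60 member probe sets was lower and 0 were higher at 6 h against 0 h, where 4.77% of all probe sets were past it (2.28% lower, 2.48% higher). At 9 h against 0 h 3 were lower and 1 was higher, against 7.41% (3.30% lower, 4.11% higher), and at 9 h against 6 h 4 were lower and 1 was higher, against 5.27% (2.58% lower, 2.69% higher). With the experiment in the model the member counts were 1 lower and 1 higher at 6 h (background 9.70%, as 4.83% and 4.87%) and 3 lower and 1 higher at 9 h against 0 h (13.9%, as 6.57% and 7.29%). For 9 h against 6 h they were 9 lower and 1 higher of 60, or 16.7%, beside a background of 9.24% (4.44% and 4.80%). What follows is therefore a description of values.

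At 6 h against 0 h the mitotic genes differed between the experiments. In experiment 1 all 35 genes were higher at 6 h than at 0 h, with a median log2 change of 0.61 and a range from 0.13 to 1.31, where 48.6% of all 10444 tested genes were higher. In experiment 2 only 11 of the 35 were higher and 24 were lower, with a median of -0.25 and a range from -1.38 to 0.32, where 51.0% of all genes were higher. Over both experiments the median of the members was 0.20, against 0.012 for all tested genes, 0.018 when the array of 6 h in experiment 1 was dropped, 0.13 with trimmed-mean scaling, against 0.088 for all genes there, and -0.070 with median scaling, against -0.095. Thus 11 genes were higher in both experiments (31.4%, background 26.9%), 24 were higher in experiment 1 and lower in experiment 2 (background 20.1%), and 0 were lower in both (background 25%) or lower in experiment 1 alone (background 22.1%). Among the 4994 tested genes whose mean level lay in the members' range, from 6.49 to 11.2, 52.6% were higher in experiment 1. The pair of arrays behind experiment 1 held the brightest and the dimmest of the 6 as deposited, and the part of brightness in this count was not tested. The count of 35 became 35 with trimmed-mean scaling, 34 with median scaling and 0 in unscaled values, where 97.1% of all genes were lower in experiment 1. All 35 members lay above the median of the 4994 genes of like level in experiment 1 under each of these 4 scalings. In experiment 2 the counts above it were 11, 9, 9 and 9. Trimmed-mean, median and no scaling differ only by a factor for each array, which this comparison cancels. Their equal counts were fixed in advance and are not separate evidence.

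**Figure D1:**
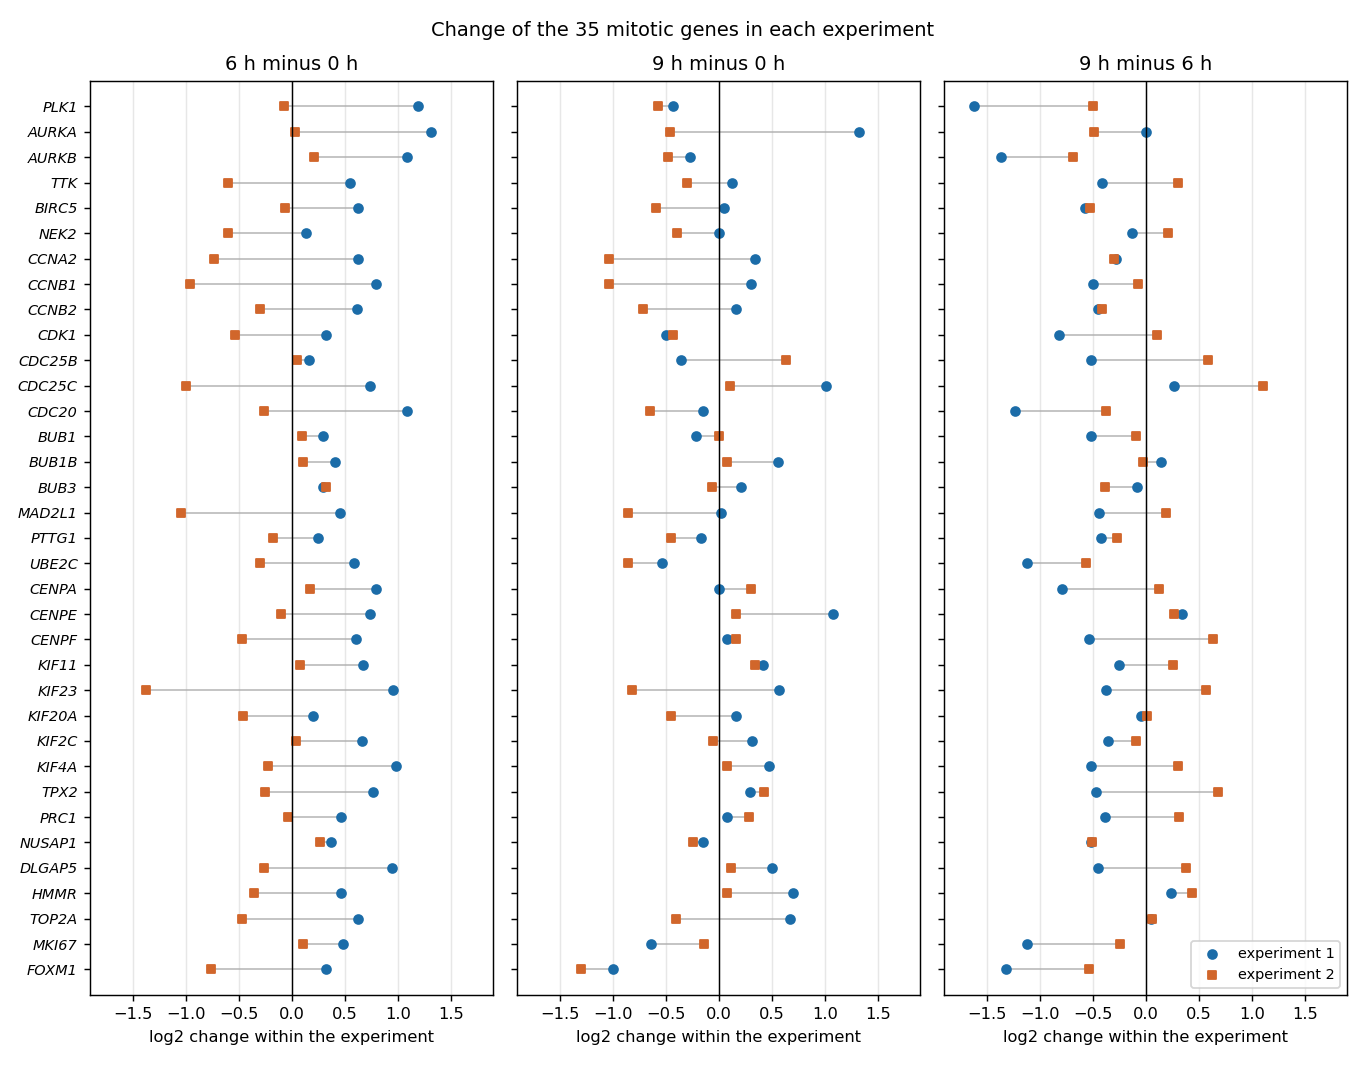
Log2 change of the 35 genes within experiment 1 (circles) and experiment 2 (squares) for 6 h minus 0 h, 9 h minus 0 h and 9 h minus 6 h, with a grey line joining the experiments and genes ordered by role. At 6 h all 35 circles lie right of 0 and 24 of the squares lie left of it, and at 9 h minus 6 h 29 circles lie left of 0.

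The cyclins and CDK1 were among the genes with this split. CCNB1, the cyclin B1 that carries CDK1 into mitosis, read 9.33, 10.12 and 9.63 in experiment 1 (0, 6 and 9 h) and 9.64, 8.68 and 8.60 in experiment 2. It was highest at 6 h in experiment 1 and highest at 0 h in experiment 2, and the groups overlapped in each comparison, with log2 changes of -0.08 ± 0.52 at 6 h and -0.37 ± 0.52 at 9 h against 0 h. Dropping a single 6 h array moved the change at 6 h to 0.64 (experiment 2 dropped) or -0.80 (experiment 1 dropped). CCNA2, cyclin A2, had 0.62 in experiment 1 and -0.73 in experiment 2 at 6 h, and CCNB2, cyclin B2, had 0.61 and -0.30. CDK1 itself read 9.60, 9.92 and 9.10 in experiment 1 (0, 6 and 9 h) and 9.62, 9.08 and 9.19 in experiment 2. On this brightest probe set both 9 h arrays of CDK1 lay below both 0 h arrays, by a log2 change of -0.47 ± 0.31 that did not pass (limma adjusted p = 0.799). On its other probe sets the groups overlapped, with -0.07 and -0.73, and 0.0 and -0.73, within experiments 1 and 2. Of the phosphatases that activate CDK1, CDC25C had 0.74 in experiment 1 and -1.0 in experiment 2 at 6 h on its brightest probe set, and CDC25B had 0.16 and 0.04.

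The widest split at 6 h was that of the kinesin KIF23, needed to finish cell division, at 0.95 and -1.38 in experiments 1 and 2, and the checkpoint protein MAD2L1 had 0.46 and -1.04. The spindle motor KIF4A had 0.99 and -0.22 and the spindle protein DLGAP5 0.94 and -0.27. Of the remaining spindle-associated genes TPX2, an activator of AURKA, had 0.76 and -0.25, PRC1, which bundles midzone microtubules, 0.46 and -0.04, and HMMR 0.46 and -0.36. TOP2A, the topoisomerase that untangles chromosomes, had 0.63 and -0.47. The kinases TTK and NEK2 had 0.54 and -0.61, and 0.13 and -0.61. For 7 genes both 6 h arrays lay above both 0 h arrays (20.0%, background 16.8%): AURKA, BUB1, CENPA, KIF11, KIF2C, MKI67 and NUSAP1. Of these AURKA, BUB1, KIF2C and NUSAP1 are there on their brightest probe set only, and MKI67 not on all of its probe sets.

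AURKA, the kinase of centrosome maturation, had the largest change at 6 h among the representative probe sets of the members, 0.67 ± 0.43. It read 8.17, 9.49 and 9.49 in experiment 1 (0, 6 and 9 h) and 8.94, 8.97 and 8.48 in experiment 2, so nearly all of the difference came from experiment 1 and the 6 h and 0 h arrays of experiment 2 were 0.03 apart. Its 2 other probe sets had changes of 0.01 and -0.82 at 6 h, so the probe sets of this gene gave no common direction.

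The comparison of 9 h with 0 h uses the same 0 h arrays as that of 6 h, so the pair is not independent. At 9 h against 0 h the members' median log2 change was -0.11, against -0.02 for all tested genes, 0.13 in experiment 1 and -0.30 in experiment 2. Lower in both experiments were 10 genes (28.6%, background 29.5%) and higher in both 10 (28.6%, background 28.0%), shares close to those of all genes. A further 12 were higher in experiment 1 alone (background 16.4%) and 3 in experiment 2 alone (background 19.8%). Dropping either the 0 h or the 9 h array of experiment 2 moved the members' median to 0.028. With median scaling 6 genes were lower in both experiments and 5 higher in both. Shares of all genes with these patterns under that scaling are not given here. The groups did not overlap for 5 genes that lay lower (14.3%, background 19.4%), CDK1, NEK2, UBE2C, NUSAP1 and FOXM1, and for 5 that lay higher (14.3%, background 19.2%), CDC25C, BUB1B, CENPE, CENPF and KIF11. NEK2 is among the lower ones by a margin under 0.01 in experiment 1. CDK1, NEK2 and NUSAP1 are there on their brightest probe set only, and UBE2C and FOXM1 have 1 probe set each. Among the higher ones, the groups overlapped on both other probe sets of CENPF and on 1 other of CDC25C. Of the 6 kinases and passenger genes 6 were lower in experiment 2 and 3 in experiment 1, whereas 4 of the 5 spindle-associated genes were higher in both.

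FOXM1, the forkhead factor that drives many of the other members, had the most negative change of the 35 representative probe sets. It read 7.92, 8.24 and 6.93 in experiment 1 (0, 6 and 9 h) and 8.0, 7.24 and 6.70 in experiment 2. Both 9 h arrays lay below the other 4, and the level at 9 h was 2.21-fold below that at 0 h, a log2 change of -1.15 ± 0.39 (-1.0 and -1.30 within the experiments). It did not pass by limma (unadjusted p = 0.0217, adjusted p = 0.619, or 0.169 with the experiment as a term). With single arrays dropped the change lay between -1.26 and -1.04. This gene has 1 probe set, whose name ends in _x_at, a mark Affymetrix uses where probes may also match other transcripts.

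UBE2C, the ubiquitin-conjugating enzyme that works with the anaphase-promoting complex, read 9.67, 10.25 and 9.13 in experiment 1 (0, 6 and 9 h) and 10.17, 9.87 and 9.31 in experiment 2. Its 9 h arrays were the lowest in each experiment, with a log2 change of -0.70 ± 0.27 against 0 h (limma unadjusted p = 0.0363, adjusted p = 0.656) that lay between -0.95 and -0.45 with single arrays dropped. BIRC5, or survivin, a subunit of the chromosomal passenger complex, was represented by a probe set that read 8.98, 9.60 and 9.03 in experiment 1 (0, 6 and 9 h) and 9.14, 9.07 and 8.55 in experiment 2. Its log2 change at 9 h was -0.27 ± 0.30, and the groups overlapped. Its 2 other probe sets had changes of -0.39 and -1.12, the latter from 7.91 and 8.36 at 0 h to 7.23 and 6.81 at 9 h (limma unadjusted p = 0.0100, adjusted p = 0.586). All 3 BIRC5 probe sets thus lay lower at 9 h, by different amounts.

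All 5 kinesins lay above their 0 h level at 9 h in experiment 1 and 2 of them did in experiment 2. KIF11, the motor that pushes the spindle poles apart, had 0.42 and 0.34 in experiments 1 and 2, KIF4A 0.47 and 0.07, and KIF23 0.57 and -0.82. Among spindle proteins HMMR had 0.70 and 0.08, DLGAP5 0.50 and 0.11, and TPX2 0.29 and 0.43. CENPE, the motor of the kinetochore, had 1.08 and 0.16. The checkpoint kinase BUB1B had 0.55 and 0.07 and its partner BUB3 0.21 and -0.07, while BUB1 had -0.22 and 0.01. KIF20A had 0.16 and -0.45 and KIF2C, which removes wrong attachments at centromeres, 0.31 and -0.06.

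From 6 h to 9 h the members lay mainly lower in experiment 1 and were evenly divided in experiment 2. Of the 35 genes 29 were lower at 9 h in experiment 1, with a median of -0.45, where 47.7% of all genes were lower, and 17 in experiment 2, with a median of 0.0091, where 49.3% were. The 6 h array of experiment 1 enters this count and that of 35 genes above, so they are not separate evidence. Lower in both experiments were 15 genes (42.9%, background 27.2%) and higher in both 4 (11.4%, background 27.4%), CDC25C, CENPE, TOP2A and HMMR. Another 14 were lower in experiment 1 alone (background 18.5%) and 2 in experiment 2 alone (background 20.2%). For 10 genes both 9 h arrays lay below both 6 h arrays (28.6%, background 15.4%), PLK1, AURKB, BIRC5, CDC20, BUB1, PTTG1, UBE2C, NUSAP1, MKI67 and FOXM1, and for HMMR alone both lay above (2.86%, background 14.8%). BUB1, NUSAP1 and HMMR are there on their brightest probe set only, and a dim BUB1 probe set lay higher at 9 h, from the floor at 6 h. Over both experiments the median of the members was -0.23, against -0.0080 for all tested genes. Dropping the 6 h array moved it to 0.056 (experiment 1) or -0.48 (experiment 2), and median scaling to 0.043, against 0.11 for all genes there. In experiment 1 alone median scaling gave 20 lower, 15 higher and a median of -0.024. Of all genes 37.7% were lower there, with a median of 0.19, and of genes of like level 26.3%, with a median of 0.40. Members below the median of genes of like level numbered 30 in experiment 1, and 28 under each of the 3 other scalings. The latter must agree here, since they differ only by a factor for each array.

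PLK1, the Polo-like kinase that triggers mitotic entry and exit, read 7.31, 8.50 and 6.87 in experiment 1 (0, 6 and 9 h) and 8.37, 8.29 and 7.79 in experiment 2. Its 9 h arrays were the lowest of each experiment, 2.09-fold below 6 h, a log2 change of -1.06 ± 0.46 (-1.62 and -0.50 within the experiments, limma adjusted p = 0.932). Adding the experiment to the model gave a standard error of 0.33 and a limma adjusted p of 0.473. AURKB, the kinase of the chromosomal passenger complex, read 7.15, 8.24 and 6.88 in experiment 1 (0, 6 and 9 h) and 8.30, 8.51 and 7.83 in experiment 2. It was 2.03-fold lower at 9 h than at 6 h, by -1.02 ± 0.48 on the log2 scale (-1.36 and -0.68, limma adjusted p = 0.932). With the experiment in the model its standard error was 0.29 and its limma adjusted p 0.473. For both kinases the experiments lay about as far apart at 0 h and at 9 h as the times did, and closer together at 6 h.

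CDC20, the activator of the anaphase-promoting complex, read 8.78, 9.86 and 8.63 in experiment 1 (0, 6 and 9 h) and 9.56, 9.29 and 8.91 in experiment 2, a change of -0.81 ± 0.35 from 6 h to 9 h. UBE2C had -0.84 ± 0.27 and FOXM1 -0.93 ± 0.39 over the same step, from the levels given above. NUSAP1, a microtubule-bundling protein, read 9.75, 10.12 and 9.60 in experiment 1 (0, 6 and 9 h) and 9.79, 10.06 and 9.55 in experiment 2. On this probe set the experiments lay closest together, with a change of -0.51 in each from 6 h to 9 h. The second probe set of NUSAP1 had -0.74 in experiment 1 and 0.14 in experiment 2, a mean of -0.30, and its groups overlapped. MKI67, the Ki-67 protein that coats mitotic chromosomes and marks dividing cells, read 8.25, 8.73 and 7.61 in experiment 1 (0, 6 and 9 h) and 8.67, 8.77 and 8.53 in experiment 2. Its change from 6 h to 9 h was -0.68 ± 0.36, and all 4 of its probe sets lay lower at 9 h than at 6 h. Single arrays carried much of these steps: with 1 dropped, the change from 6 h to 9 h ranged from -1.14 to -0.23 for MKI67, -1.43 to -0.42 for FOXM1, -1.52 to -0.60 for PLK1, -1.50 to -0.55 for AURKB and -1.09 to -0.52 for CDC20. That of NUSAP1 ranged from -0.54 to -0.48. PTTG1, the securin that guards sister chromatids, had -0.42 and -0.27 in experiments 1 and 2.

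**Figure D2:**
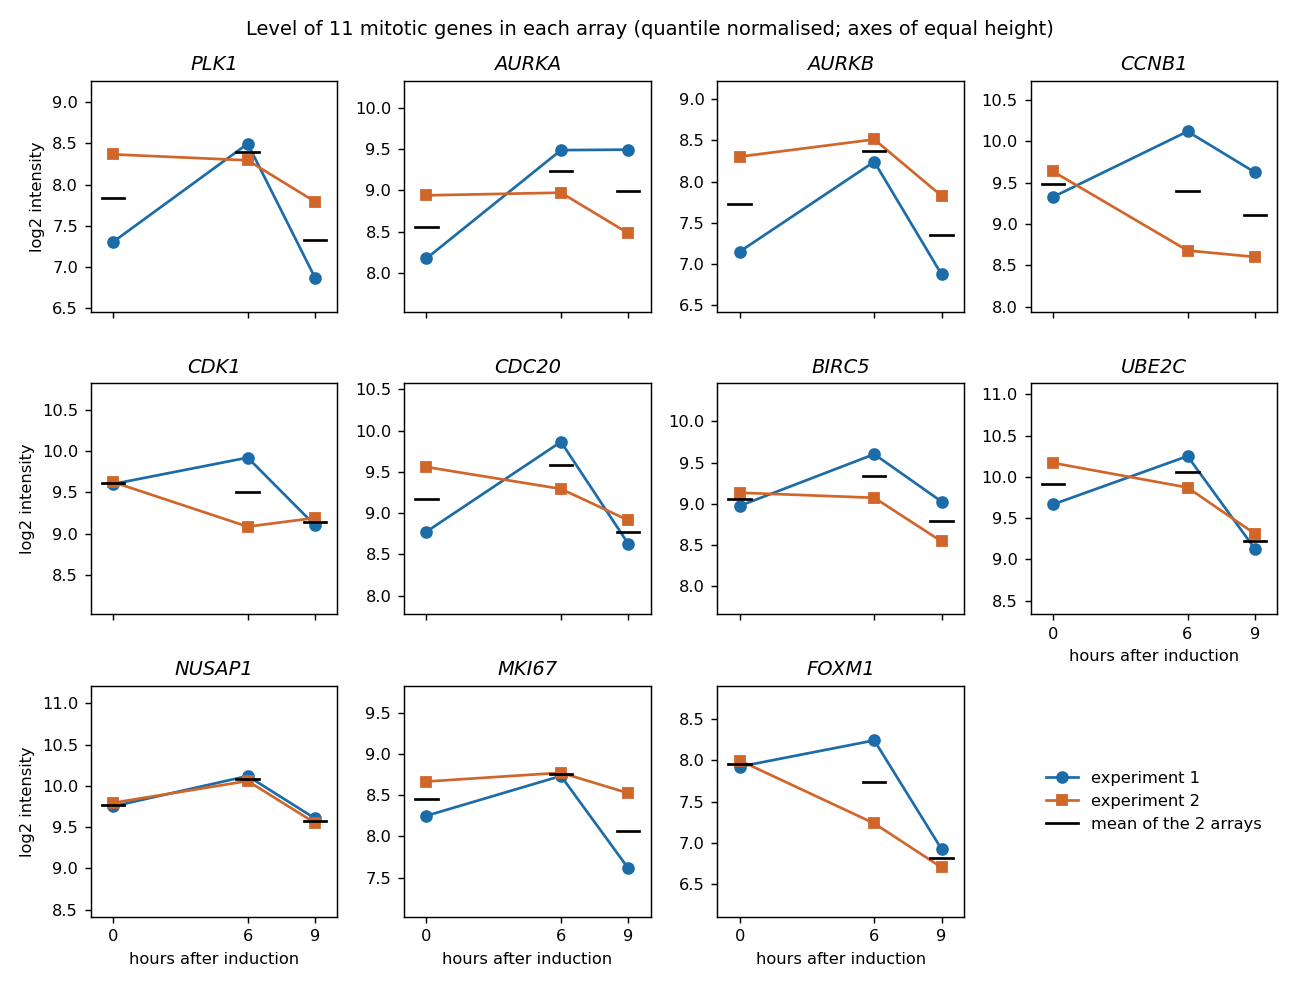
Log2 intensity at 0 h, 6 h and 9 h in experiment 1 (circles) and experiment 2 (squares) for the 11 members with an unadjusted p under 0.05 in either limma model or a log2 change of 1 or more in size, or shown whatever their values; the black bar is the mean of the 2 arrays. FOXM1 and UBE2C lie lowest at 9 h in both experiments, while CCNB1 is highest at 6 h in experiment 1 and at 0 h in experiment 2.

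Some members did not follow these lines. CDC25C was higher at 9 h than at 6 h in both experiments, by 0.27 and 1.10 on its brightest probe set. Another of its probe sets, above the floor in all 6 arrays, had -0.68 and 0.48 over that step. Its dimmest probe set, at the floor for 6 h in either experiment, read 4.62 and 5.64 at 9 h, and it is the 1 higher probe set counted above at 9 h against both 0 h and 6 h. A dim probe set of BUB1 lay at the floor at 6 h in either experiment, from 5.46 and 4.53 at 0 h, and is the 1 lower probe set counted above at 6 h. Against arrays at the floor these changes have no measured size. The brightest BUB1 probe set read 8.04 and 7.77 at 6 h and had a log2 change of 0.20 there. Of the 14 genes with several tested probe sets, these differed in sign in 10 at 6 h against 0 h, in 4 at 9 h against 0 h and in 8 at 9 h against 6 h.

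**Figure D3:**
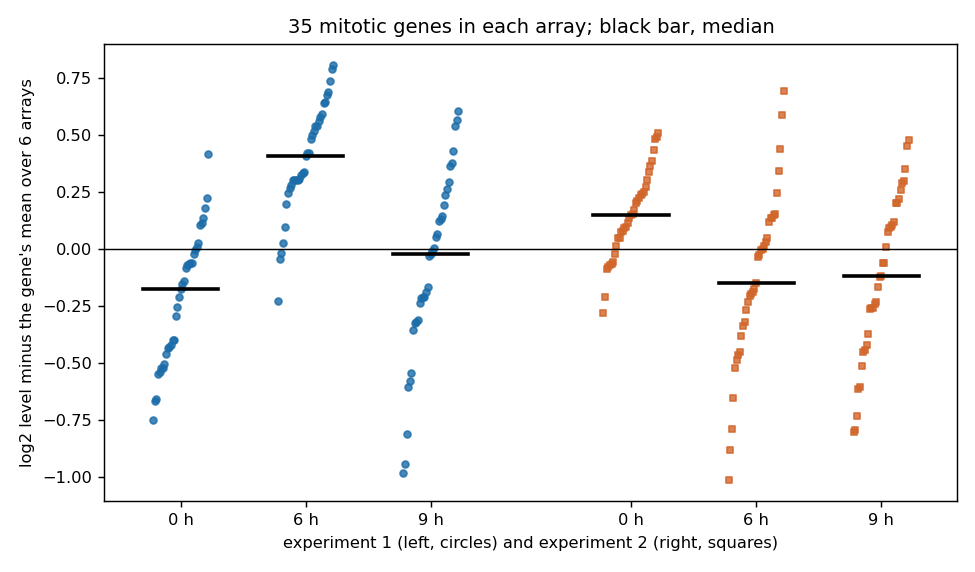
Each point is 1 of the 35 genes, its log2 level minus that gene's mean over the 6 arrays, for experiment 1 (circles) and experiment 2 (squares); black bars are medians. The 6 h array of experiment 1 has a median of 0.41 with 32 genes above their own mean, and the 0 h array of experiment 2 has 0.15 with 27 above.

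In array terms, the members' median deviation from their own mean was -0.18, 0.41 and -0.02 at 0 h, 6 h and 9 h in experiment 1, and 0.15, -0.15 and -0.12 in experiment 2. Over all tested genes it lay between -0.03 and 0.04 in every array. In these bulk samples fewer cells in mitosis and less of each transcript per cell cannot be told apart.

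Other genes of the pathway were taken from lists made by role. Of 73 other mitotic genes, among them kinetochore, condensin and cytokinesis genes, 62 were tested, and 60 were higher at 6 h than at 0 h in experiment 1 and 27 in experiment 2. From 6 h to 9 h 49 of them were lower in experiment 1 and 28 in experiment 2. By limma 0 passed in any comparison with or without the experiment in the model, and unadjusted p under 0.05 was met by 1 gene at 6 h, 3 at 9 h against 0 h and 2 at 9 h against 6 h (1.61%, 4.84% and 3.23%, beside 4.22%, 7.91% and 5.04% of all genes). With the experiment in the model these were 7, 6 and 3 (11.3%, 9.68% and 4.84%, beside 9.74%, 15.1% and 9.38%). STIL, a centriole assembly gene, had 1.20 and 0.39 at 6 h, and KIF18A, a kinesin that limits chromosome movement, 1.34 and 0.79 at 9 h against 0 h. CDCA3, a trigger of mitotic entry, was -0.72 and -1.28 from 6 h to 9 h. Of 58 tested genes of DNA replication and the G1/S step, 47 were higher at 6 h in experiment 1 and 23 in experiment 2, and 40 and 36 were lower from 6 h to 9 h. MCM5, a subunit of the replicative helicase, had -1.15 and -0.83 over that step.

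Of 11 tested genes that encode or directly serve the anaphase-promoting complex, 0 passed in either fit. UBE2S, which extends the ubiquitin chains that UBE2C starts, had a log2 change of -1.31 ± 0.33 at 9 h against 0 h, -1.41 and -1.22 within the experiments (limma adjusted p = 0.555, or 0.0652 with the experiment as a term). ANAPC10 and CDC27, subunits of the complex, had 1.62 and 0.22, and 0.99 and 0.39, at 9 h against 0 h. Of 18 tested regulators of mitotic gene transcription 0 passed. E2F4, the E2F of the DREAM repressor complex, had -1.0 and -0.77 at 9 h against 0 h, and MYBL2, the MYB factor that joins MuvB at these promoters, -1.63 and -0.14 from 6 h to 9 h. RBL1, a pocket protein of the DREAM complex, had 0.76 and 1.09 over that step. LIN37, a MuvB subunit, had 1.08 and 0.93 at 9 h against 0 h, and E2F5, a repressor E2F, read 5.77 and 5.26 at 9 h from the floor at 0 h in either experiment.

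Of 16 tested CDK inhibitors and other brakes on mitosis, 1 passed at 9 h against 0 h with the experiment as a term (6.25%, beside 0.450% of all genes), where 0 passed without it. This was GADD45B, a stress gene whose protein can bind CDK1, which read 7.19 and 8.2 at 0 h and 10.41 and 10.34 at 9 h, a log2 change of 2.68 ± 0.39 (limma adjusted p = 0.543, or 0.00890 with the experiment as a term). CDKN1A, the p21 inhibitor through which p53 represses mitotic genes, had 0.38 and 1.07 at 6 h against 0 h and did not pass (limma adjusted p = 0.969). BTG1, an antiproliferative gene, had 0.91 and 1.27 at 9 h against 0 h. Other brakes lay lower. CDKN2A, the locus of the p16 inhibitor, read 5.45 and 5.77 at 0 h and 3.96 and the floor at 9 h. Its probe set was dim with a name ending in _x_at, and whether the signal came from CDKN2A was not tested. PKMYT1, a kinase that inhibits CDK1, had -1.09 and -0.16 at 9 h against 0 h, CDKN2D -0.20 and -0.96, and CDKN1B, the p27 inhibitor, -0.42 and -0.99 at 6 h against 0 h. In experiments 1 and 2 alike 9 of the 16 lay higher at 9 h than at 0 h.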

How the data were processed

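The values deposited by the authors are 1 linear intensity per probe set and array, with no common scaling: the 2% trimmed means of the 6 arrays differed 5.49-fold. The sources used here do not name the software behind them. Probe sets were named from the platform table, 19071 with 1 symbol and 1043 with several, and 2169 had none; current symbols came through Entrez numbers for 19059. Quantile normalisation came first, then a floor at the 25th percentile (12.7 units, or 3.67 in log2), then log2. After removing 68 controls, probe sets above the floor in at least 2 of 6 arrays were tested with limma 3.58.1 in R 4.3.3 (lmFit, contrasts, eBayes with trend; 3 residual degrees of freedom), two-sided, adjusted by Benjamini-Hochberg over 18360 probe sets (threshold 0.05); 10444 genes were represented by their brightest probe set. The number of arrays, 2 per group, limits precision: an exact permutation test of 2 against 2 cannot go below p = 0.333.

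Arrays are paired by the experiment named in their titles. The lot line of a 6 h array names the other experiment, so the pairing of that array rests on its title alone. Same-experiment deviations from group means correlated at 0.247 between 0 h and 6 h arrays. Between 0 h and 9 h they correlated at 0.336, and between 6 h and 9 h at 0.391. The fit was tested on simulated data with known changes. There it missed all or most of the smallest changes, with or without the experiment as a term. With that term some unchanged probe sets were called too.

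The members and the lists were chosen with earlier results of these data known. Named were all members, those with a log2 change of at least 1 or an unadjusted p under 0.05 in either model, and CDK1, CCNB1, PLK1, AURKA, MKI67 and FOXM1 whatever they showed, in every array; and from each other list those past the threshold and up to 3 per direction with the largest change shared by both experiments, not all of which are printed. Alternatives were other scalings, floors, filters and blocks, and leaving out each array; counts under other scalings, set against genes of like level, were added after seeing the data. HOXA5 itself was not analysed here. The promoter letters are from RefSeq, GRCh38.p14.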

Additional observations from a re-analysis of the deposited data

Results flagged for a closer look

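On their representative probe sets, 3 members had 6 h arrays above 0 h in both experiments and 9 h arrays below it in both. The share of all genes with this pattern is not given here. The second NUSAP1 probe set had 0.27 and -0.32 at 6 h against 0 h in experiments 1 and 2. Other MKI67 probe sets were mixed. There 1 had 0.26 and -0.20 at 6 h, another had 0.41 and -0.23 at 9 h, and the last kept the pattern. On the representative probe sets the log2 change from 6 h to 9 h was -1.02 for AURKB, -0.51 for NUSAP1 and -0.68 for MKI67. Choosing genes by this pattern fixes the sign of that step. That step is itself the test of the difference between the times, and none of the 3 passed it (limma adjusted p = 0.932 each, or 0.473, 0.479 and 0.489 in that order once the experiment entered the model). With single arrays dropped it ranged from -1.50 to -0.55 for AURKB, from -0.54 to -0.48 for NUSAP1 and from -1.14 to -0.23 for MKI67. Groups of 2 arrays are too small for the outlier test used for larger groups.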

How the results depend on the processing

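The count of member probe sets that passed was 0 in all 3 comparisons under every alternative run, the replicate block (experiment as a term) and each left-out array included. With 2 arrays per group and 0 calls to lose, this says nothing about stability. The block changed no call of a member. The medians of the members stayed within the spread between the experiments except in unscaled values, where they were -1.41 at 6 h and -0.65 at 9 h against 0 h and 0.79 at 9 h against 6 h, beside -1.36, -0.56 and 0.78 for all genes. With an array left out the medians ranged from -0.00088 to 0.48, from -0.19 to 0.028 and from -0.48 to 0.056.

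Unscaled values also turned the sign of 18 of 33 changes of the genes shown in full. At 6 h these were PLK1 (-1.01), AURKA (-0.91), AURKB (-0.93), CDC20 (-1.20), BIRC5 (-1.33), UBE2C (-1.46), NUSAP1 (-1.29) and MKI67 (-1.31), and at 9 h against 0 h AURKA (-0.12). At 9 h against 6 h they were AURKA (0.79), CCNB1 (0.69), CDK1 (0.61), CDC20 (0.18), BIRC5 (0.47), UBE2C (0.13), NUSAP1 (0.46), MKI67 (0.33) and FOXM1 (0.051). Median scaling, added after seeing the data, turned UBE2C at 6 h (-0.12) and AURKA at 9 h against 6 h (0.043), and the members' medians at 6 h (-0.070) and at 9 h against 6 h (0.043). The other settings with all 6 arrays turned no sign among these 33. With the lot line as the block, changes at 6 h were larger for AURKB (1.17, from 0.65), PLK1 (1.05, from 0.56) and CDC20 (0.68, from 0.41). So were those of MKI67 (0.63, from 0.29), UBE2C (0.31, from 0.14), CCNB1 (-0.26, from -0.08) and FOXM1 (-0.26, from -0.22). Those of AURKA, BIRC5, CDK1 and NUSAP1 were smaller in size.

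Leaving out 1 array turned further signs. The ranges at 6 h were -0.11 to 0.39 for UBE2C, -0.80 to 0.64 for CCNB1, -0.53 to 0.31 for CDK1 and -0.72 to 0.28 for FOXM1. At 9 h against 0 h they were -1.03 to 0.028 for PLK1, -0.95 to 0.20 for AURKB, -0.077 to 0.94 for AURKA, -0.84 to 0.067 for MKI67 and -0.88 to 0.14 for CCNB1. At 9 h against 6 h they were -0.75 to 0.26 for AURKA, -1.01 to 0.44 for CCNB1 and -0.77 to 0.061 for CDK1. Sizes moved by over 1.5 times with no change of sign at 6 h for AURKA (0.29 to 1.05), AURKB (0.073 to 1.22), PLK1 (0.029 to 1.09), CDC20 (0.019 to 0.80), BIRC5 (0.018 to 0.55) and MKI67 (0.087 to 0.50). So they did at 9 h against 0 h for BIRC5 (-0.51 to -0.028) and CDC20 (-0.79 to -0.0042), and at 9 h against 6 h for BIRC5 (-0.82 to -0.29), beside those in the text.

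Counts under other scalings were added after seeing the data. With median scaling 0 genes were higher at 6 h in experiment 2 (11 in the text). Of all genes 40.2% were, and of genes of like level 29.0%. Under that scaling 6 were lower in both experiments and 5 higher in both at 9 h against 0 h (10 and 10 in the text). Unscaled, 0 were higher at 6 h in either experiment, where 0.996% and 24.0% of all genes were in experiments 1 and 2. At 9 h against 0 h 29 were lower in both and 0 higher in both. From 6 h to 9 h 0 were lower in both and 0 in experiment 1, where 3.72% of all genes were. Trimmed-mean scaling moved no count by over 1.5 times. The number of arrays limits every value, and dim probe sets near the floor are the least certain.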
